A study of Mus musculus with 4 samples.

Results

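Mpo, Elane, Prtn3, Ctsg and Ms4a3 are 5 mouse genes expressed with the primary granules of neutrophil and monocyte precursors, and they were followed here in cultures meant to hold early T-cell progenitors. They were found by symbol, each with a single row among the 31053 genes of both deposited single-cell matrices. Their unique molecular identifiers (UMIs, each standing for a captured RNA molecule) were read per cell and summed per hashtag, the antibody-borne barcode that marks a sample. Most UMIs of Elane, Mpo and Ms4a3 came from a small set of cells, chiefly in clusters led by granulocyte or monocyte genes. Ctsg and Prtn3 also gave low counts in a large share of the other cells. Some clusters held mainly Ctsg, some mainly Prtn3, and some both.

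The study cultured bone-marrow progenitors on OP9-Dll1 stroma, a feeder line that presents a Notch ligand, with IL-7 and Flt3-ligand at 10 ng/ml each. The overexpression arm used cells of B6.Bcl2 transgenic mice aged 8-10 weeks that received MSCV-Runx1-mCherry or MSCV-empty-mCherry on day 2 and were harvested after 4 or 6 days as live, lineage-negative, mCherry+, CD45+ cells. The knockout arm used B6.Cas9;Bcl2 transgenic cells given guide vectors against Runx1 and Runx3, or guides against luciferase as the control, on day 2, with harvest after 5 or 8 days. Cells of every group therefore carried the Bcl2 transgene, which favours survival, and had been exposed to retrovirus. The cells are labelled Phase 1, Kit-high T progenitors, and were pooled into 2 experiments of 8 hashtags with 1 mRNA library each, labelled as 4-5 days (experiment 1) and 4-8 days (experiment 2) of culture. The labels used here do not tie a hashtag to a vector or a harvest day. Each hashtag is therefore a sample of unknown condition, none is treated as a replicate of another, and no p-value is given. Intervals in parentheses are exact 95% intervals and cover counting error only.

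Primary granules are the first granules made on the way to a neutrophil. Mpo encodes myeloperoxidase, a haem enzyme that makes hypochlorous acid, and Elane, Prtn3 and Ctsg encode the serine proteases neutrophil elastase, proteinase 3 and cathepsin G, which are activated by the protease encoded by Ctsc. Ms4a3 encodes a membrane protein known as a marker of granulocyte-monocyte progenitors. The programme is switched on in those progenitors under factors that include PU.1 (Spi1), C/EBP proteins, Myb and Runx1, and falls as neutrophils mature.

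Elane and Prtn3 are neighbours in the genome, and Ctsg lies on another chromosome among granzyme and mast cell protease genes. In RefSeq on GRCm38.p6, Prtn3 (ENSMUSG00000057729, chr10:79879667-79883174, plus strand) ends 3137 bases before Elane (ENSMUSG00000020125, chr10:79886312-79888216, plus strand) begins. Ctsg (ENSMUSG00000040314, chr14:56099885-56102574, minus strand) lies between Mcpt8, 14385 bases away, and Gzme, 15044 bases away. Mpo (ENSMUSG00000009350, chr11:87793784-87804412, plus strand) and Ms4a3 (ENSMUSG00000024681, chr19:11629499-11640851, minus strand) lie elsewhere. The 250 bases before 3 start sites are shown, because Elane and Prtn3 are neighbours that were detected in very different shares of cells, and because Prtn3 and Ctsg, which lie on different chromosomes, were both widely detected. They lie at chr10:79879417-79879666 (plus) for Prtn3, chr10:79886062-79886311 (plus) for Elane and chr14:56102575-56102824 (minus) for Ctsg, and run 5′ to 3′ on the gene's strand, with capitals for AGGAAGT (an Ets core), AACGG (a Myb core) and TGTGGT (a Runx core, which reads ACCACA where it lies on the other strand).
Prtn3: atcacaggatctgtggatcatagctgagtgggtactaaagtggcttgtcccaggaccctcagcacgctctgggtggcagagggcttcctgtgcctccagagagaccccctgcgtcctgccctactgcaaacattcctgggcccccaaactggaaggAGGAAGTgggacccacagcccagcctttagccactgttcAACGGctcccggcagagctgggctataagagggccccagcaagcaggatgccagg
Elane: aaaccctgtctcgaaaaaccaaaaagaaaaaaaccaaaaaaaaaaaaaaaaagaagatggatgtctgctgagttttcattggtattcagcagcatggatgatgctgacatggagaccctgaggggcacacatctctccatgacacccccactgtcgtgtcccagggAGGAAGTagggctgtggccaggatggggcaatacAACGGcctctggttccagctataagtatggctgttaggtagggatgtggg
Ctsg: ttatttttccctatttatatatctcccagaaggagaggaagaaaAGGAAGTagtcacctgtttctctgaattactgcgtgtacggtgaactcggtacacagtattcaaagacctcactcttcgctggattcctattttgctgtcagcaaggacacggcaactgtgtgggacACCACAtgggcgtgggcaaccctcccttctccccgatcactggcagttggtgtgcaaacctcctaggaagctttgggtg
AGGAAGT, bound by Ets factors such as PU.1, was found in 4 of the 5 members: at -94 to -88 from the start of Prtn3, -84 to -78 of Elane, -206 to -200 of Ctsg and -223 to -217 of Mpo. It was in 7.80% of 27025 promoter windows of this length, with both strands searched for every motif. AACGG was in Prtn3 (-55 to -51) and Elane (-50 to -46) and in 14.8% of windows. TATAAG, left in lower case, lay nearer the start of the same genes (-32 to -27 and -31 to -26) and was in 6.81% of windows. TGTGGT was in Ctsg on the opposite strand (-79 to -74), in no other member, and in 14.2% of windows. TTGCNNAA, a C/EBP core, was in 0 of the 5 members and in 9.55% of windows. The matches in the members did not overlap, and a match is a run of letters, not a measured binding site. Each motif was searched in a single fixed form. A promoter without a match may hold other forms of the same motif, which were not counted.

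After filtering, 8797 cells of experiment 1 and 8335 of experiment 2 carried a single hashtag, 691 to 1291 and 855 to 1312 per hashtag, with 14502385 to 38067298 and 22272716 to 42684236 UMIs per hashtag. The median cell had 24753 and 26338 UMIs, and the experiments shared 39 barcode sequences, 0.391% and 0.369% of theirs. The markers of T progenitors were present in every hashtag, with Il2ra at 162 to 495 UMIs per 1000000 (CPM) in experiment 1 and 63.3 to 341 in experiment 2, and Kit at 54.3 to 89.0 and 26.4 to 56.5. The cultures were not T progenitors alone: 24 granulocyte or monocyte markers summed to 1047 and 4936 CPM, against 901 and 887 CPM for 12 T-lineage markers. Tyrobp, which many blood cells express, made up 512 and 657 CPM of the former and lay between 421 and 609.8 CPM in every hashtag of experiment 1. Clusters, built and named without the members, numbered 16 and 21.

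The members made up 476 CPM in experiment 1 and 701 CPM in experiment 2, and 63.7% and 65.3% of cells held at least 1 of their UMIs. Elane was the most concentrated. It had no UMI in 95.7% of cells of experiment 1, yet 40 cells with 50 or more UMIs held 81.5% of its UMIs. In experiment 2, 91.3% of cells had none and 97 cells held 86.1%. Of these cells, 97.5% and 97.9% lay in clusters named granulocyte or monocyte-like. Mpo was concentrated too, with 56 and 107 cells of 50 or more UMIs that held 68.6% and 74.7% of its UMIs. Fewer of these Mpo-rich cells, 71.4% and 90.7%, lay in granulocyte or monocyte-like clusters.

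Ctsg and Prtn3 had a broad low tier. In experiment 1, 16.4% of cells had 1 to 2 Ctsg UMIs and 17.8% had 3 to 9, and the latter held 27.4% of the gene's UMIs. For Prtn3 the same bins held 16.5% and 10.7% of cells but 3.76% and 9.63% of UMIs, since 224 cells with 50 or more carried 55%. In experiment 2 the 2 low bins held 14.1% and 14.5% of cells for Ctsg and 18.2% and 11.2% for Prtn3. Low counts were thus common for both proteases in both experiments. Depth rose along the bins: in experiment 1 the median cell with no Ctsg had 22266 UMIs, with 3 to 9 it had 28014, and with 50 or more 38032.

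**Figure D1:**
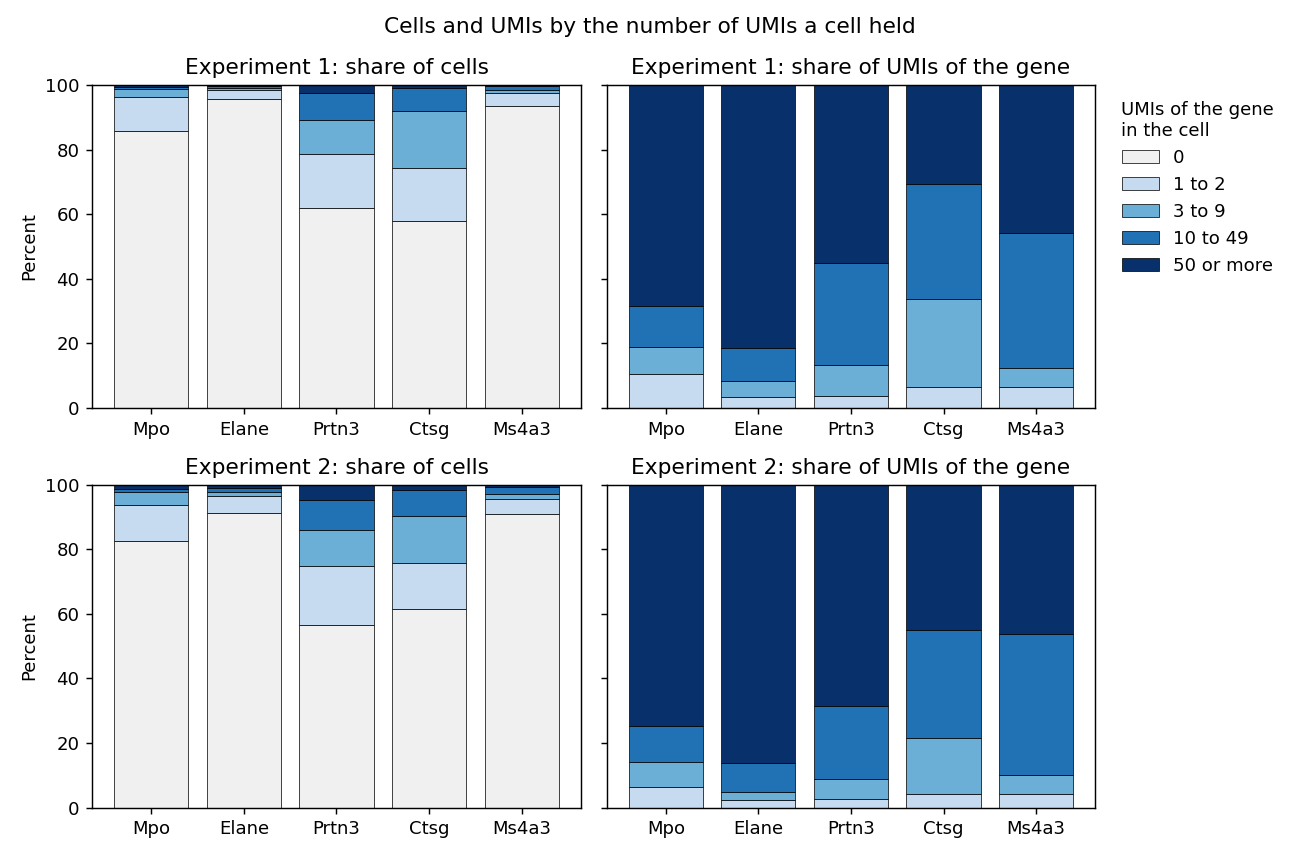
Stacked bars give, for each gene and experiment, the percent of cells (left) and of the gene's UMIs (right) by how many UMIs of that gene a cell held. Elane, Mpo and Ms4a3 are absent from most cells, whereas Ctsg and Prtn3 have wide middle bins, with 17.8% of cells of experiment 1 holding 3 to 9 Ctsg UMIs.

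Cells with few Ctsg UMIs differed from cells with many in their other genes. In experiment 1, Il2ra, the IL-2 receptor alpha chain of T progenitors, was 321 CPM in cells with no Ctsg, 339 CPM with 1 to 2 UMIs and 22.5 CPM with 50 or more. In experiment 2 it was 150.4, 207 and 16.1 CPM. Cells with 1 to 2 Ctsg UMIs thus had Il2ra at or above the level of cells without Ctsg. Those with 3 to 9 had it below that level, at 245 CPM in experiment 1 and 145 CPM in experiment 2. The 12 T-lineage markers summed were lower with 1 to 2 Ctsg UMIs than with none. They were 906 against 1106 CPM in experiment 1 and 950 against 1119 CPM in experiment 2. Gata3, Tcf7, Bcl11b and Cd3g were each lower too, in both experiments. S100a8, a neutrophil alarmin, was 20.0, 0.504 and 2981 CPM in the same bins of experiment 1 and 1433, 674 and 13309 CPM in experiment 2. For Prtn3, Il2ra was lower in cells with a few UMIs than in cells with none: 441 CPM with none and 66.7 CPM with 3 to 9 UMIs in experiment 1, and 245 and 38.9 CPM in experiment 2. Cebpa, a factor of granulocyte-monocyte commitment, was 3.42 CPM in cells without Elane and 55.9 CPM in those with 3 to 9 Elane UMIs.

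The high tier lay in a few clusters. Cluster 14 of experiment 1, 50 cells led by S100a8, S100a9 and Ngp, had Mpo at 3459 CPM, Elane at 3675, Prtn3 at 6276, Ctsg at 3151 and Ms4a3 at 1632. Every member was found in at least 94.0% of its cells. Cluster 15 of experiment 2, 174 cells led by Camp, Ngp and Ltf, genes of later granules, had 2056, 3615, 3536, 1889 and 991 CPM in the same order. Cells of that cluster were uneven, with Elane in 43.1% and Prtn3 in 54.0% of them.

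Clusters led by monocyte genes carried mainly Prtn3. Cluster 4 of experiment 2, 715 cells with Ms4a6c, Ly6c2 and Csf1r among the leading genes, had Prtn3 at 1616 CPM, with UMIs in 95.9% of cells. Mpo was 277 CPM there, Elane 275, Ctsg 388 and Ms4a3 216. Cluster 7 of experiment 1, 645 cells led by Ccl24, Cybb and Tgfbi, had Prtn3 at 1199 CPM in 97.8% of cells, Mpo at 99.4, Elane at 50.4, Ctsg at 265 and Ms4a3 at 122. It has no class name, because 4 dendritic markers were among its 50 leading genes, as many as granulocyte or monocyte markers.

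Whether cluster 7 is counted decides how much of each gene is assigned to granulocyte or monocyte-like cells in experiment 1. Without it, the named cells held 83.9% of Elane, 56.8% of Mpo, 47.4% of Ms4a3, 22.5% of Prtn3 and 18.9% of Ctsg UMIs. With it, a choice made after the clusters were seen, they held 97.2%, 75.6%, 88.0%, 72% and 37.2%. In experiment 2, where both kinds of cluster were named, the shares were 96.5%, 78.5%, 88.0%, 72.2% and 45.9%. There, 715 of the 889 named cells were those of cluster 4, led by monocyte genes. Among the members, only Ctsg had most of its UMIs outside these clusters in experiment 2 and, with cluster 7 counted, in experiment 1.

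**Figure D2:**
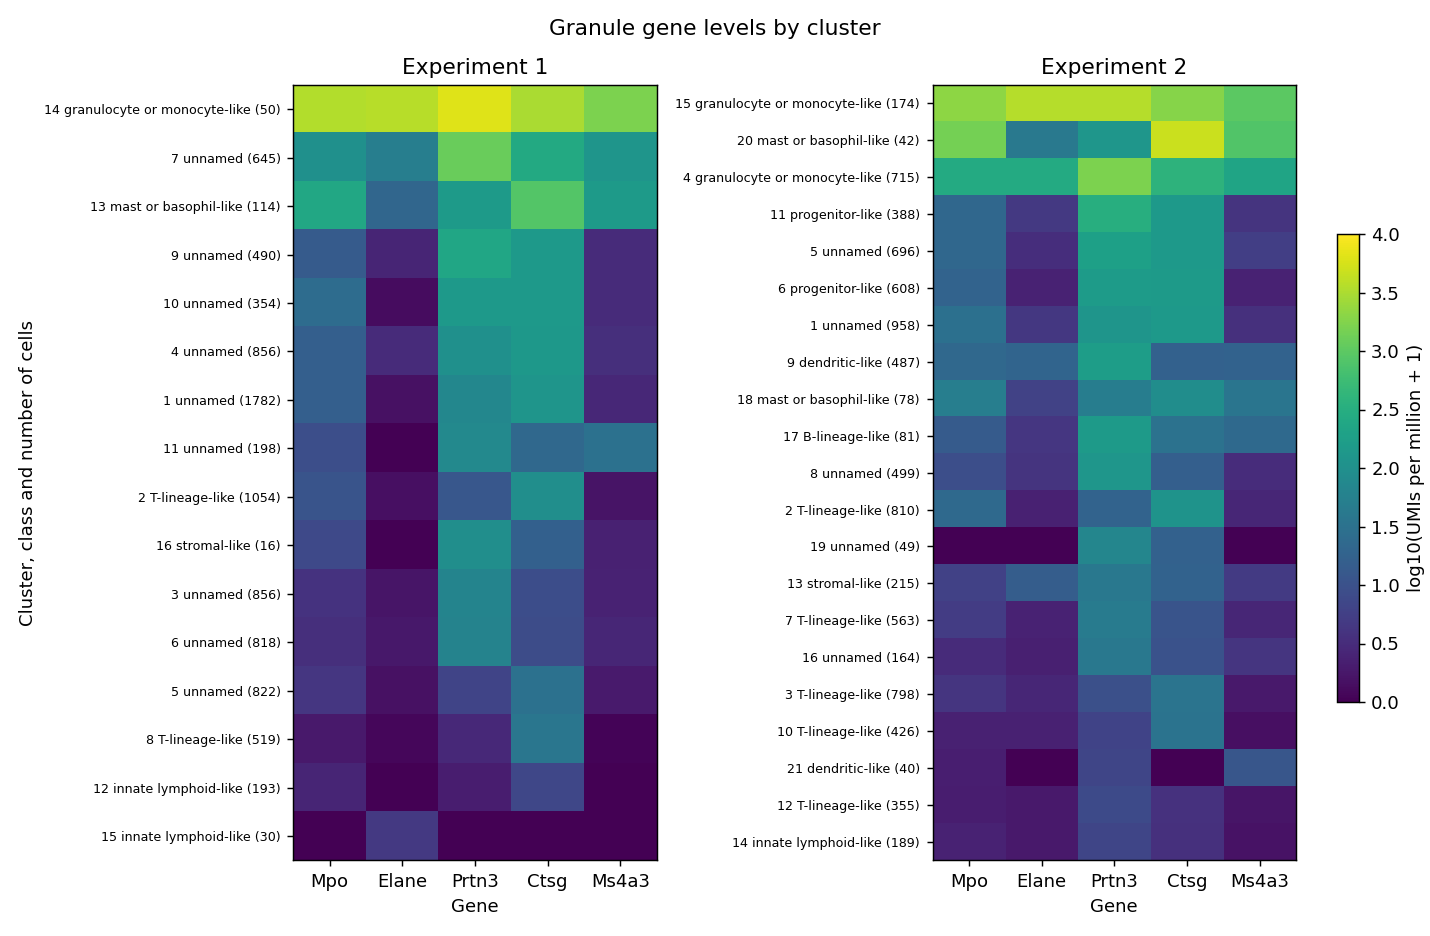
Colour gives each gene's level, log10(CPM + 1), in every cluster (rows, with class and number of cells, ordered by the summed members) of both experiments. All 5 genes are bright in the top rows (clusters 14 and 15), clusters 7 and 4 are brightest in Prtn3, and cluster 20 of experiment 2 is bright in Ctsg, Mpo and Ms4a3 with Elane at 40.9 CPM.

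Clusters led by mast cell and basophil genes carried Ctsg above the other members. Cluster 20 of experiment 2, 42 cells led by the basophil protease genes Prss34 and Mcpt8, had Ctsg at 4796 CPM in 97.6% of cells, Mpo at 1439 and Ms4a3 at 816, against Prtn3 at 126 and Elane at 40.9. Cluster 13 of experiment 1, 114 cells led by Mcpt1, Prg2 and Prss34, had Ctsg at 838 CPM, Mpo at 247, Ms4a3 at 152, Prtn3 at 152 and Elane at 20.0. Cluster 18 of experiment 2, 78 cells led by the mast cell proteases Mcpt1, Mcpt4 and Mcpt2, had Ctsg at 92.1 CPM and Elane at 5.06 CPM. High Ctsg was thus not limited to cells with high Elane.

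Summed over the T-lineage-like clusters the members were low, and Ctsg was the highest of them. UMIs are counted at RNA ends without a length term, so levels of different genes are set side by side on that scale. Over 1573 such cells of experiment 1, Ctsg was 80.3 CPM (77.6 to 83.1) with a UMI in 50.3% of cells. Prtn3 was 8.91 CPM (8.03 to 9.86), Mpo 7.86 CPM (7.04 to 8.76), Ms4a3 0.475 CPM and Elane 0.380 CPM, 16 UMIs in all. In experiment 2 the order of the 2 highest was the same. Over 2952 cells, Ctsg was 53.9 CPM (52.2 to 55.5) in 32.0% of cells, Prtn3 19.2 CPM (18.2 to 20.2), Mpo 9.74, Elane 1.43 and Ms4a3 1.29 CPM. Which clusters carry the name depends on the settings. Over the alternatives Ctsg ranged from 53.4 to 100.2 CPM in experiment 1 and 23.5 to 53.9 CPM in experiment 2. Prtn3 ranged from 3.88 to 21.2 and 6.55 to 35.3 CPM. The name leaves out clusters 3 and 6 of experiment 1, 856 and 818 cells, whose best-scoring marker list was T lineage. Cluster 3 tied with the dendritic list at 3 markers each, and cluster 6 had 2 T-lineage markers where 3 were needed. Both had Prtn3 above Ctsg, unlike the named class. Cluster 7 of experiment 2, also with Pgam2 among its leading genes, carries the name.

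Free RNA can put UMIs into cells that do not make them, so the shares were set beside those of other classes, after thinning each cell to 3000 UMIs. The planned references, classes that should lack the genes, were stromal-like and B-lineage-like cells. Innate lymphoid-like cells were not planned and were added. Their summed members, 8.55 CPM, were the lowest of the named classes in experiment 1, so a share above theirs is no test of free RNA. Innate lymphoid-like cells had median depths of 16802 and 17049 UMIs and T-lineage-like cells 26700.0 and 24514, and 2 and 0 of the former and 6 and 16 of the latter were too shallow and left out. For Ctsg, a UMI remained in 15.8% (14.1 to 17.7) of T-lineage-like and 0.905% (0.110 to 3.23) of innate lymphoid-like cells in experiment 1, and in 9.98% (8.92 to 11.1) and 1.06% (0.128 to 3.77) in experiment 2. Stromal-like cells of experiment 2, 215 cells with a median of 49682 UMIs, had Ctsg in 4.25% (1.96 to 7.91). B-lineage-like cells of experiment 2, 81 cells with a median of 17565 UMIs, had it in 7.59% (2.84 to 15.8). The 16 stromal-like cells of experiment 1 had it in 0% (0 to 20.6), an interval too wide for a comparison. Of the planned references in experiment 2, the Ctsg share of T-lineage-like cells was above that of stromal-like cells. It overlapped that of the few B-lineage-like cells. The share was also above that of the added innate lymphoid-like cells in both experiments. The part of free RNA in it was not tested.

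Prtn3 remained in 2.17% and 3.64% of T-lineage-like cells, against 0.452% and 0.529% of innate lymphoid-like cells, but in 8.49% (5.11 to 13.1) of stromal-like and 8.86% (3.64 to 17.4) of B-lineage-like cells of experiment 2. Its share in T-lineage-like cells as a class was thus not above every reference, and the part of free RNA in it was not tested. Mpo remained in 1.98% and 1.84% of T-lineage-like cells, with intervals that overlapped those of innate lymphoid-like cells. At full depth its level was 7.86 CPM (7.04 to 8.76) and 9.74 CPM (9.05 to 10.5). That was, however, above the 1.51 CPM (0.553 to 3.28) and 1.44 CPM (0.467 to 3.36) of innate lymphoid-like cells. In experiment 2 it was above the 4.99 CPM (3.77 to 6.47) of stromal-like cells. It was not above the 12.9 CPM (8.15 to 19.3) of B-lineage-like cells. Of the 23 Mpo UMIs behind that last level, 14 lay in 1 cell, and after thinning Mpo remained in 0% of B-lineage-like cells. In experiment 1 the Mpo interval of T-lineage-like cells lay within that of the 16 stromal-like cells, at 6.50 CPM (2.11 to 15.2). The part of free RNA in these Mpo levels was not tested. Elane remained in 0.0638% and 0.272% and Ms4a3 in 0.0638% and 0.307% of T-lineage-like cells, and the intervals of these 2 genes, thinned and at full depth, overlapped those of innate lymphoid-like cells in both experiments.

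The members did not stand in a fixed ratio between cell classes. As a percent of its level over all cells, the T-lineage-like level in experiment 1 was 59.3% for Ctsg, 15.9% for Mpo, 3.92% for Prtn3, 1.70% for Ms4a3 and 1.07% for Elane. The order was the same in experiment 2, from 33.9% for Ctsg to 1.57% for Elane. All 5 members were at least 10-fold higher in granulocyte or monocyte-like than in T-lineage-like cells in both experiments, as were 1.92% of 5953 genes in experiment 1 and 1.53% of 5421 in experiment 2. Within thinned T-lineage-like cells, Ctsg was found in 14.7% of the 34 cells with Prtn3 and 15.9% of the rest in experiment 1, and in 17.8% of 107 and 9.69% in experiment 2. Over all cells outside the clusters named granulocyte or monocyte-like, a cell with Prtn3 held Ctsg more often than a cell without it. Ctsg was in 27.8% of cells with Prtn3 and 14.6% of the rest in experiment 1, and in 22.7% and 12.9% in experiment 2. In experiment 1 these cells still include the 645 of unnamed cluster 7, which carried both genes. The part of cluster 7 in the difference was not tested.

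Outside the granulocyte or monocyte-like cells, some clusters parted Prtn3 from Ctsg and others held both. Clusters 2 and 8 of experiment 1, T-lineage-like, had Ctsg at 94.7 and 35.9 CPM and Prtn3 at 11.2 and 1.84 CPM. Clusters 3 and 6, led by Pgam2 (a phosphoglycerate mutase of muscle) and without a class name, had the reverse, with Prtn3 at 63.9 and 60.6 CPM and Ctsg at 7.85 and 7.61 CPM. The leading hashtags of these clusters, hashtag 3 and hashtag 4, gave 49.9% and 52.7% of their cells. T-lineage-like clusters 2, 3 and 10 of experiment 2 had Ctsg at 111, 33.4 and 32.9 CPM with Prtn3 at 17.9, 8.31 and 5.29. Clusters 7 (also T-lineage-like) and 8 (unnamed), with Pgam2 among their leading genes, had Prtn3 at 45.6 and 127 CPM with Ctsg at 9.75 and 15.1, and hashtag 2 gave 51.9% and 74.7% of their cells. T-lineage-like cluster 12, which has Pgam2 among its 10 leading genes too, was low in both, with Prtn3 at 6.97 and Ctsg at 2.70 CPM.

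Progenitor-like and several unnamed clusters carried both proteases. Clusters 6 and 11 of experiment 2, with the progenitor gene Cd34 among the leading genes, had Prtn3 at 158 and 322 CPM and Ctsg at 149 and 143 CPM, with Elane at 1.42 and 3.69. Their cells held a Prtn3 UMI in 69.3% and a Ctsg UMI in 56.1% of cases. Unnamed clusters 1, 9 and 10 of experiment 1 had Prtn3 at 69.2, 232 and 147 CPM and Ctsg at 120.3, 146 and 146 CPM. Prtn3 exceeded Ctsg in dendritic-like (152 and 14.8 CPM), B-lineage-like (151 and 31.3) and stromal-like cells (39.6 and 17.3) of experiment 2. Of the 271 Prtn3 UMIs of B-lineage-like cells, 155 lay in 1 cell, and 15 of the 81 cells held any. The part of free RNA or of doublets in these values was not tested.

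**Figure D3:**
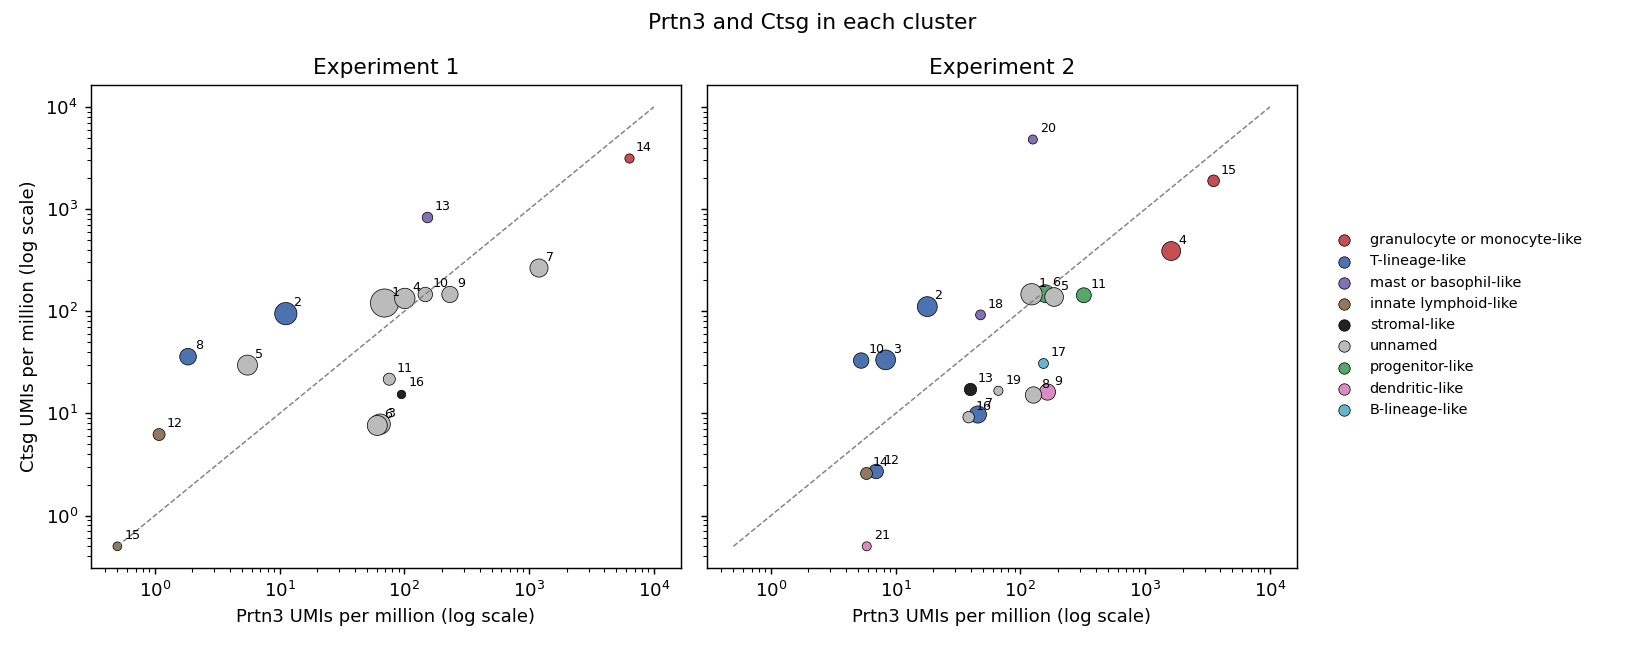
Each point is a cluster, placed by its Prtn3 (x) and Ctsg (y) level in CPM on log axes, coloured by class and sized by its number of cells, with values under 0.5 drawn at 0.5 and equal levels as a dashed line. T-lineage-like clusters 2 and 8 of experiment 1 lie above the line (94.7 and 35.9 CPM of Ctsg) and Pgam2-led clusters 3 and 6 below it (7.85 and 7.61 CPM), with the granulocyte or monocyte-like clusters at the upper right.

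Summed over all cells of a hashtag, Mpo ran from 16.7 CPM through a median of 38.3 to 114 CPM in experiment 1 and from 23.2 through 71.1 to 224 CPM in experiment 2. Elane ran from 3.96 through 26.0 to 99.6 CPM and from 1.19 through 60.4 to 329.7 CPM. Ms4a3 ran from 4.15 through 18.9 to 71.8 CPM and from 1.95 through 45.3 to 89.6 CPM. These 3 genes were lowest in hashtag 7 of either experiment and highest in hashtag 2 of experiment 1 and hashtag 6 of experiment 2, though nothing in the labels ties equal numbers across experiments. Hashtag 7 of experiment 2 held 8 granulocyte or monocyte-like cells, 0.787% of its cells, and 28 Elane UMIs in all. Without the granulocyte or monocyte-like cells, the highest-to-lowest ratio of Elane was 4.97 in place of 25.1 in experiment 1 and 8.20 in place of 277 in experiment 2. The hashtags behind these ratios changed, from 2 over 7 to 2 over 8 in experiment 1 and from 6 over 7 to 4 over 7 in experiment 2. Unnamed cluster 7 of experiment 1 was among the cells that stayed.

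Prtn3 and Ctsg were low in different hashtags. Prtn3 ran from 60.6 CPM in hashtag 7 through a median of 177 to 473 CPM in hashtag 2 of experiment 1, and from 24.5 in hashtag 7 through 318 to 618 CPM in hashtag 1 of experiment 2. Ctsg ran from 50.3 CPM in hashtag 4 through 128 to 243 CPM in hashtag 2, and from 54.7 CPM in hashtag 2 through 132 to 349 CPM in hashtag 6. Hashtag 2 of experiment 2 thus had Prtn3 among the 3 highest (433 CPM) and the lowest Ctsg, while hashtag 7 had the lowest Prtn3 and Ctsg at 92.1 CPM. By share of cells, hashtag 2 had a Prtn3 UMI in 57.8% and a Ctsg UMI in 19.8% of cells, and hashtag 7 in 15.1% and 42.3%.

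**Figure D4:**
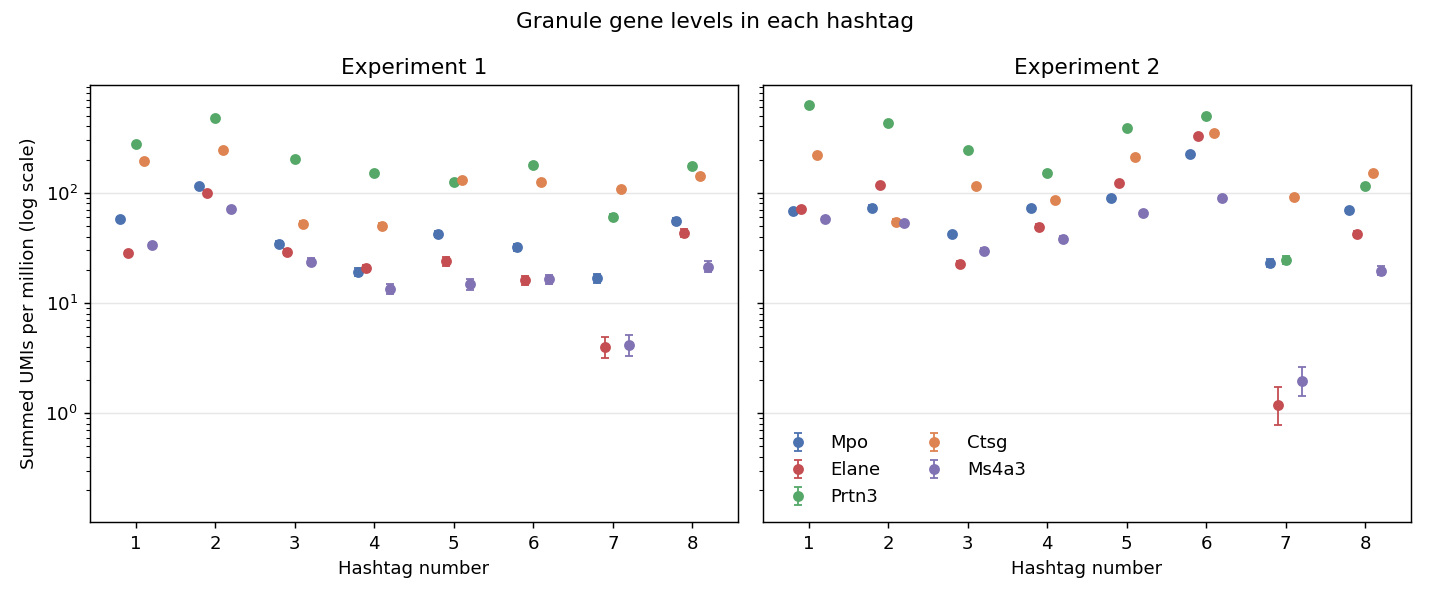
Points give each gene's summed level (CPM, log axis) in the 8 hashtags of each experiment, with exact Poisson 95% intervals for counting error. Elane and Ms4a3 fall to 1.19 and 1.95 CPM in hashtag 7 of experiment 2, where Ctsg stays at 92.1 CPM.

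For the members summed, the hashtags of experiment 1 lay between 192 and 1002 CPM, so the highest was 5.20 times the lowest (interval 5.04 to 5.37). Those of experiment 2 lay between 143 and 1487 CPM, a 10.4-fold span (interval 10.0 to 10.8). Leaving out hashtag 2 lowers the first to 3.07, and leaving out hashtag 7 lowers the second to 3.74. Among single members, Ctsg had the smallest ratios, 4.83 and 6.37, and Elane the largest, 25.1 and 277, but without hashtag 7 those of Elane were 6.19 and 14.5. All 5 members reached a 4-fold ratio in both experiments, as did 1.54% of 5472 genes in experiment 1 and 3.66% of 5108 in experiment 2. Leaving out 1 hashtag took 3 of them below 4-fold in experiment 1, with Mpo at 3.47 and Ctsg at 3.82 without hashtag 2 and Prtn3 at 3.77 without hashtag 7. In experiment 2 it took Mpo to 3.88 and Ctsg to 3.98 without hashtag 6, and without hashtag 7 Prtn3 was 5.33 in place of 25.2 and Ms4a3 4.58 in place of 45.8. Without granulocyte or monocyte-like cells, Mpo of experiment 1 was 3.47, with hashtag 1 over hashtag 3 in place of hashtag 2 over hashtag 7. Over the 16 hashtags, with log2(CPM + 1) centred within each experiment, Pearson's r and Spearman's rho were 0.96 and 0.91 for Prtn3 and Ms4a3, 0.95 and 0.90 for Elane and Ms4a3, and 0.41 and 0.47 for Prtn3 and Ctsg. Hashtags of an experiment share a library, so these are descriptions.

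Within T-lineage-like cells, Prtn3 and Ctsg again differed by hashtag. In experiment 1, Ctsg was 35.6 CPM in hashtag 4 and 53.0 to 95.5 CPM in the others, while Prtn3 was 24.2 and 27.7 CPM in hashtags 3 and 4 and 0.643 to 13.4 CPM in the others. Ctsg made up 56.2% of the summed Ctsg and Prtn3 UMIs in hashtag 4 and 98.8% in hashtag 7, where the makeup differed: cluster 2 held 85.4% of these cells in hashtag 4 and 43.3% in hashtag 7, with cluster 8 holding the rest. In experiment 2, Prtn3 was 53.9 CPM in hashtag 2 and 3.34 to 22.8 CPM in the others, and Ctsg was 17.2 and 14.9 CPM in hashtags 2 and 4 and 37.3 to 95 CPM in the others. Hashtags 2 and 4 differed from the rest in makeup: clusters 7 and 12 held 292 and 58 of 390 T-lineage-like cells in hashtag 2 and 266 and 292 of 656 in hashtag 4, while the other hashtags had at most 3 cells in either and held theirs in clusters 2, 3 and 10.

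**Figure D5:**
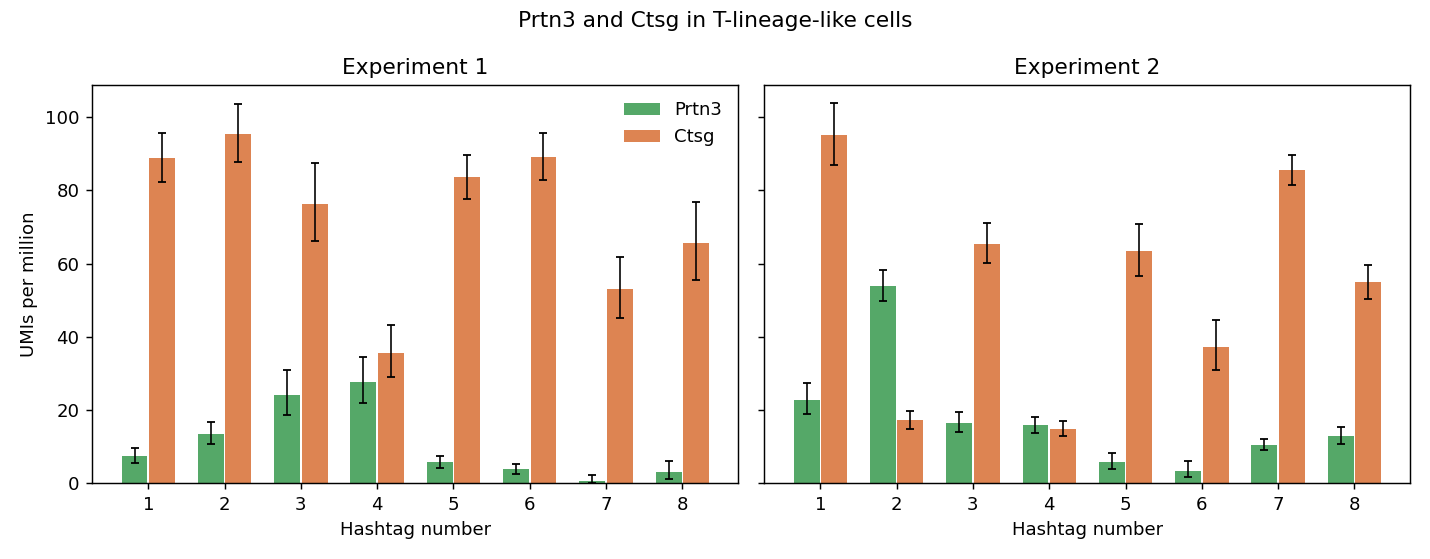
Bars give Prtn3 and Ctsg in T-lineage-like cells (CPM, from 0) by hashtag, with exact Poisson 95% intervals. Ctsg exceeds Prtn3 in all 8 hashtags of experiment 1, with hashtag 4 closest (35.6 against 27.7 CPM), and in experiment 2 hashtag 2 has the reverse (17.2 against 53.9 CPM).

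Single clusters that held cells of all hashtags gave differences as well. In T-lineage-like cluster 2 of experiment 1, led by Il2ra, Prtn3 was 29.6 CPM (23.4 to 36.8) in hashtag 4, 25.9 CPM in hashtag 3 and 1.15 to 14.6 CPM in the others. Ctsg there was 38.5 CPM (31.5 to 46.8) in hashtag 4 and 74.4 to 111 CPM in the others. In unnamed cluster 1, the largest of experiment 1, Prtn3 was 76.0 to 100.2 CPM in hashtags 1 to 4 and 14.4 to 40.1 CPM in hashtags 5 to 8, while Ctsg was 95.5 to 135 CPM throughout. The same hashtags parted in cluster 7, with Prtn3 at 1301 to 1778 CPM in hashtags 1 to 4 and 699.7 to 1038 CPM in hashtags 5 to 8. These ranges were read from the values themselves, and the condition of no hashtag is known. In cluster 2 of experiment 2, Prtn3 was 4.69, 6.13 and 9.47 CPM in hashtags 5, 6 and 8 and 18 to 25.2 CPM in the rest, and Ctsg ran from 56.4 to 151 CPM.

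Other genes of the granule pathway were compared between granulocyte or monocyte-like and T-lineage-like cells. In experiment 1 the former class was cluster 14, led by S100a8, S100a9 and Ngp. In experiment 2, 715 of its 889 cells were those of cluster 4, led by monocyte genes, so its makeup differed between experiments. The 9 later granule and alarmin genes that reached 20 CPM in either class (of 11 listed) are all markers that named the granulocyte or monocyte-like class, so their levels there are no result. The same holds for Cebpe, Klf4, Csf1r, Csf3r, Fcgr3, Lyz2 and Prss57 in the counts that follow. Of 8 measured transcription factors, Cebpa, Cebpe and Irf8 were at least 10-fold higher in granulocyte or monocyte-like than in T-lineage-like cells in both experiments. The 8 included Gfi1 in experiment 1 only and Klf4 in experiment 2 only. Runx1, which the study overexpressed or targeted with guides, was lower in granulocyte or monocyte-like cells. It was 42.8 against 104 CPM in experiment 1 and 51.2 against 77.4 CPM in experiment 2, with cells pooled whatever their vector. Cebpa, which was not used for naming, was 83.9 against 0.309 CPM in experiment 1 and 25.7 against 0.279 CPM in experiment 2, and Irf8, also not used, was 140.0 against 8.89 CPM and 236 against 12.2 CPM. Spi1, which encodes PU.1, was 473 against 66.4 CPM in experiment 1. Myb was lower in the granulocyte or monocyte-like cells of experiment 1, at 214 against 363 CPM. Both Spi1 and Myb are among the markers that named progenitor-like clusters. Of the receptors of granulocyte and monocyte progenitors, Csf1r, Csf2rb and Fcgr3 reached 10-fold in both experiments, among 6 measured in experiment 1 and 5 in experiment 2. Csf2rb, a receptor chain for myeloid growth factors and no naming marker, was 72.2 against 4.94 CPM and 57.4 against 3.82 CPM. Of 7 genes for maturation, storage and inhibition of the proteases only Slpi, a secreted protease inhibitor, reached 10-fold in either experiment. Ctsc, the gene of the activating protease, was 164 against 44.3 CPM in experiment 1 and 150.0 against 42.0 CPM in experiment 2, so its RNA was found in T-lineage-like cells as well. Of 6 other primary granule contents measured, only Lyz2 (lysozyme) reached 10-fold, and Cd63, a granule membrane protein not used for naming, was 451 against 72.2 CPM and 129 against 110.5 CPM.

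In the protease cluster around Ctsg on chromosome 14, the 2 genes that reached 20 CPM in either class had the opposite order to Ctsg. Mcpt8, a basophil protease and the nearest neighbour of Ctsg (and a marker of the mast or basophil list), was 10.0 against 46.4 CPM in experiment 1 and 11.6 against 24.3 CPM in experiment 2 (granulocyte or monocyte-like against T-lineage-like). Gzmb, granzyme B, was 3.89 against 132 CPM and 10.0 against 63.3 CPM. Gzmc, below that level, was 4.41 against 0.982 CPM in experiment 2, higher in the granulocyte or monocyte-like cells. The 14 genes listed as neighbours include Cfd and Med16 from the side of Elane and Prtn3, and no other of the 14 reached 20 CPM in either class.

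The genes whose levels were most like the mean of the members were taken by Pearson's r of centred log2(CPM + 1) over 4958 genes. Over the 16 hashtags these were Hacd2 (0.91), Mtpn, Ctsz, Adap1, S100a8, Tcirg1, Ogfrl1, Msrb1, Tspo and Ift22 (0.86), while Ctsg itself ranked 443 with 0.60. Over the 37 clusters they were Pgd (0.90), Mcee, Gsr, G6pdx, Dnajc25, Atp6v0b, Mafg, Abhd11, Sem1 and Msrb1 (0.77). The points share libraries, so the correlations are descriptions.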

How the data were processed

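The deposited matrices hold raw UMI counts per gene and cell and hashtag read counts per cell, made by the authors with Cell Ranger 3.0.0 on mm10 (GRCm38), per the submitters' processing notes. A cell needed 500 detected genes, less than 10% of UMIs from mitochondrial genes, and a top hashtag of 50 counts that was 3 times the second. Cells were clustered without the members (2000 variable genes, 30 components, 15 neighbours, Leiden resolution 0.5) in scanpy 1.11.5 under Python 3.11.15 with leidenalg 0.10.2, and named from marker lists by a scoring rule set after the data were seen. Scrublet marked 7 and 13 cells and was judged not to have worked, so doublets were not removed. CPM are member UMIs over all UMIs, and a gene entered a ratio with a mean of at least 20 CPM over hashtags and 10 UMIs in the lowest. Ratio calls and the Poisson intervals of single hashtags were tested on simulated Poisson counts. The simulation did not cover the intervals of ratios or the uneven spread of UMIs over cells.

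The genes, pathway lists and markers were chosen with earlier results of these data known. Named genes were the members, the listed pathway genes and the 10 genes most like the members. Alternatives changed the hashtag rule (HTODemux of Seurat 5.3.0 among them), the cell filter, scaling (edgeR 4.0.16 TMM, DESeq2 1.42.0 size factors), clustering and depth. Because each experiment is 1 library and the hashtags' conditions are not known, no test between conditions was made, and replicate spread is not known.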

Additional observations from a re-analysis of the deposited data

Results flagged for a closer look

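In 24 sets of 8 hashtag values, 5 highest values lay farther from the next than Dixon's 95% limit for 8 samples allows, and chance flags about 1 set in 20. In experiment 1 this was hashtag 2 for Mpo (114 CPM, next 58.1), Elane (99.6 CPM, next 43.0) and Ms4a3 (71.8 CPM, next 33.4). In experiment 2 it was hashtag 6 for Mpo (224 CPM, next 90.3) and Elane (329.7 CPM, next 122). Hashtag 2 of experiment 1 held 25 of the 50 cells of granulocyte or monocyte-like cluster 14. The members of a hashtag share cells, so these flags are not independent.

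Cells that passed the filter but had no hashtag call took no part in the comparisons, and the members were found there too. They made up 449 CPM over 535 such cells of experiment 1, against 476 CPM in called cells, and 929 CPM over 1879 such cells of experiment 2, against 701 CPM. The median depth of these cells was 43493 and 29199 UMIs.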

How the results depend on the processing

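No paired analysis was possible because the hashtags carry no condition and no result comes from a test. The highest-to-lowest hashtag ratio of the summed members, 5.20 in experiment 1 and 10.4 in experiment 2, was 5.80 and 9.91 as a mean over cells, 5.42 and 9.80 without the 5 barcodes richest in member UMIs of each hashtag, and 2.95 and 2.78 without granulocyte or monocyte-like cells. It was 5.38 with TMM in experiment 1 and 11 with the stricter cell filter in experiment 2. The highest and lowest hashtags were chosen anew in each setting. Leaving out 1 hashtag gave 3.07 to 5.20 and 3.74 to 10.4. The share of member UMIs in granulocyte or monocyte-like cells was 31.1% and 71.2%. It became 63.8% and 57.0% with a 5-fold hashtag rule, 64.3% and 64.3% with a minimum of 20 hashtag counts, 64.5% and 53.6% with HTODemux, 45.8% and 60.7% with the stricter cell filter, 58.0% and 62.0% with no filter, 52.4% and 63.9% at resolution 1.0, 65.5% and 60.3% with 3000 variable genes, and 51.0% and 71.8% with a gate on marker UMIs. In experiment 1 it was also 32.5% without the top 5% of Scrublet scores and 65.3% with cluster 7 counted, an alternative chosen after seeing the data. The cause of these shifts was not tested. The share of other cells with a member UMI, 63.5% and 62.2%, fell with depth, to 30.1% and 26.9% after thinning to 3000 UMIs. It was 61.1% and 64.2% with the 5-fold rule, 67.7% and 66.4% with the stricter filter, and 60.5% and 64.2% with 3000 variable genes. In experiment 1 it was 61.1% with 20 hashtag counts, 60.8% with HTODemux, 60.2% with no filter and 60.8% with cluster 7 counted, and in experiment 2 63.3% at resolution 1.0. Percent shares have no direction, and a highest-to-lowest ratio with both hashtags chosen anew cannot reverse, so these settings do not test direction. They show how far sizes moved. Among the settings given, the share of member UMIs in granulocyte or monocyte-like cells ran from 31.1% to 65.5% in experiment 1. In experiment 2 it ran from 53.6% to 71.8%.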
